A study of Homo sapiens with 6 samples.

Results

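The sites described here are places where DPF3a was mapped at a gene start without SMAD4 or p300. They were chosen by 2 conditions on the deposited peak lists: the DPF3a peak overlapped no SMAD4 and no p300 peak by even 1 bp, and its summit lay within 1000 bp, on either side, of a transcript start in the GENCODE 44 annotation of hg38. There were 1317 such sites among 51530 DPF3a peaks, and among 118277 peaks of all 3 lists. They made up 10.4% of the 12703 DPF3a peaks at promoters (95% Wilson interval 9.85 to 10.9), of which 4486 touched SMAD4 without p300, 54 touched p300 without SMAD4 and 6846 touched both. Another 14969 DPF3a peaks touched neither list but lay outside promoters. The lists themselves chose the sites, so the strength of the DPF3a signal at them is given as a description. Sequence was not used by the choice, and the annotation was used only through the 1000 bp limit, which all promoter classes compared here share.

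The study mapped the 3 factors by ChIP-seq in the clear cell renal carcinoma line 786-O, with 2 libraries per factor and 6 in all. DPF3a was overexpressed and pulled down through an HA tag after fixation with DSG and formaldehyde, and SMAD4 and p300 were pulled down with antibodies to the proteins after formaldehyde fixation without DSG. Overexpression of DPF3a in the cells used for these other factors was not given in the sources used here. Per the series' design text each list comes from both libraries of a factor. The way of combining them was not given in the sources used here, so no value has a replicate error, and the intervals below cover counting error over sites, which are not replicates.

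DPF3a is the short isoform of DPF3, an accessory subunit of the SWI/SNF (BAF) complex, which uses ATP to slide or evict nucleosomes. SWI/SNF complexes are drawn to chromatin by transcription factors such as AP-1, the dimer of FOS and JUN proteins that opens enhancers, while SMAD4 carries TGF-β and BMP signals to DNA and p300 acetylates histones at active promoters and enhancers. Promoters in vertebrates fall into a CpG-rich kind, typical of broadly expressed genes, and a CpG-poor kind, typical of tissue-restricted genes.

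Sequence at the summits is printed for examples of different kinds of site, which do not show how frequent each kind is. The windows printed here hold the summit and 50 bp on either side, on the plus strand of hg38, read from the reference genome, and were taken by highest fold enrichment in each kind of site, leaving out windows that touch an untranslated region. The first 4 were picked for holding the AP-1 consensus TGACTCA, which 22.6% of the sites held. In these 4, the capitals mark it on either strand. They lie upstream of an internal start of DOCK10 (chr2:224816918-224817018), in ENSG00000250501 (chr4:138796931-138797031), upstream of ENSG00000286062 (chr5:66440544-66440644) and upstream of the canonical start of MROH2B (chr5:41072118-41072218).
DOCK10: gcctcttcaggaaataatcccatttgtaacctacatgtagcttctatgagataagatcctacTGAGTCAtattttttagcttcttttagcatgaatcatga
ENSG00000250501: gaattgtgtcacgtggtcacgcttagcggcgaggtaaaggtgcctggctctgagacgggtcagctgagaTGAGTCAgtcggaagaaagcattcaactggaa
ENSG00000286062: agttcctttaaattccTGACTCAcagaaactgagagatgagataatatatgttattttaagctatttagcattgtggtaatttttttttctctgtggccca
MROH2B: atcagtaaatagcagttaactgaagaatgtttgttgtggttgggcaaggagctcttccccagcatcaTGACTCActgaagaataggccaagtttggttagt
TTLL10-AS1 (chr1:1179450-1179550) is the strongest printable site without the AP-1 consensus. Its summit and the 150 bp on either side held 68.4% G and C, against a median of 44.9% at the sites.
TTLL10-AS1: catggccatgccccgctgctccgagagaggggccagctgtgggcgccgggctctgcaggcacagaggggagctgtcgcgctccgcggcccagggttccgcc
In the last pair the capitals mark CG dinucleotides. MGRN1 (chr16:4682235-4682335) is from the small CpG-rich minority of the sites, and TMEM37 (chr2:119431722-119431822) is shown for contrast as a promoter where all 3 factors were mapped.
MGRN1: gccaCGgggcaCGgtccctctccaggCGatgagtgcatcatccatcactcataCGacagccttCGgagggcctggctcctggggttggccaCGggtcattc
TMEM37: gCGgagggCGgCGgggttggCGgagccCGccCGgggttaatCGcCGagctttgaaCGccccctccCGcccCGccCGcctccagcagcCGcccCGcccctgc
In the window, DOCK10, ENSG00000286062 and MROH2B had no CG dinucleotide, ENSG00000250501 and MGRN1 had 6, TTLL10-AS1 had 9 and TMEM37 had 14.

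Promoter sites bound by DPF3a alone were CpG-poor. A site was called CpG-rich when its summit and the 150 bp on either side held at least 50% G and C and at least 0.6 of the CG dinucleotides that its base composition predicts. This was so at 32 of the 1317 sites (2.43%, 1.73 to 3.41). The share was 42.5% (41.0 to 43.9) at promoters with DPF3a and SMAD4, a difference of -40.1 percentage points (95% Newcombe interval -41.7 to -38.3). At promoters with all 3 factors it was 83.1% (82.2 to 84.0), a difference of -80.7 points (-81.8 to -79.4). Among the 219233 start positions of the annotation it was 37.9%. The median G and C content was 44.9% at the sites (quartiles 39.5 and 50.2), 58.1% with SMAD4, 67.8% with all 3 factors and 42.2% at the peaks of DPF3a alone outside promoters. Those outside peaks were CpG-rich in 0.327% (0.248 to 0.433), so the promoter sites exceeded them by 2.10 points (1.39 to 3.09). The composition of the promoter sites was thus nearer to the outside peaks than to either kind of shared promoter. The result depended on how overlap was defined. When peaks counted as shared only where each covered at least 0.5 of the other, the rule in the study's own methods, 3114 promoter sites stood alone, 42% of them were CpG-rich and 12.6% held the AP-1 consensus described below.

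**Figure D1:**
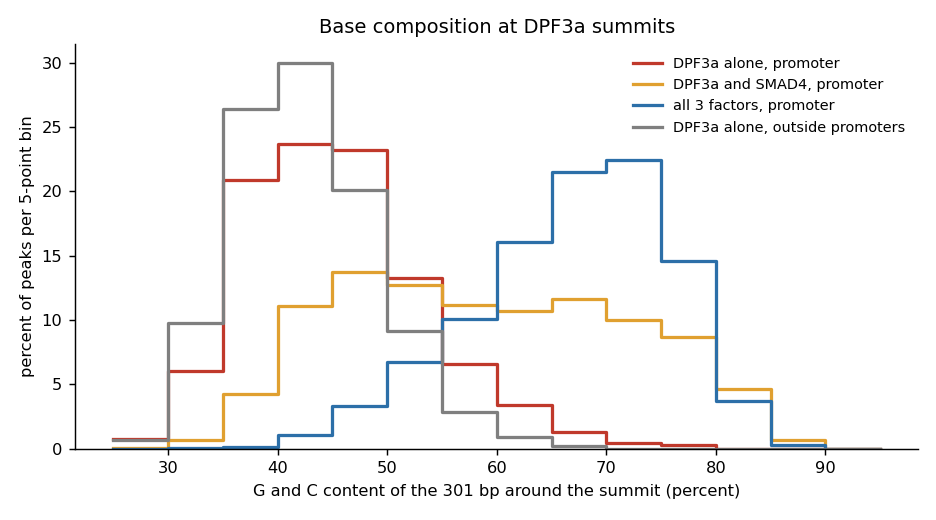
Share of DPF3a peaks (y axis, percent per 5-point bin) by G and C content of the sequence around the summit (x axis, percent), with a line for each class of peak. Promoter sites of DPF3a alone (red) peak between 40 and 50%, next to the DPF3a peaks alone outside promoters (grey), while promoters with all 3 factors (blue) peak between 70 and 75%.

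The difference in composition held at every distance from the start and in every band of signal. Within 50 bp of a start, 4.55% of the sites were CpG-rich, against 60.6% with SMAD4 and 91.8% with all 3 factors. Among peaks of at least 30 reads at the summit the shares were 0.503%, 15.4% and 58.1%, in the same order. At the canonical start of a protein-coding gene, the start of the transcript chosen to represent the gene, 9.23% of the sites were CpG-rich (4.3 to 18.7), against 73.8% and 91.4%.

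Transcription factor consensus sequences were searched on both strands within 50 bp of the summit. The letters were TGACTCA for AP-1, TGTGGTT for RUNX, ACATTCC for TEAD, TTGCNNAA for CEBP, TATAAA for the TATA box, GGGGCGG for the GC box that SP and KLF factors read, GGCGCC and GTCTAGAC for SMADs, CCGGAAGT for ETS, GCATGCGC for NRF1, TGACGTCA for the CRE, CCAATCA for NFY, AAGATGGC for YY1, CACGTG and CAGGTG for E-boxes and TACGTG for HIF. The core of the CTCF motif was searched as a pattern with alternative bases at some positions, which is not printed here. Some of these motifs can overlap each other, and a match is not evidence of binding. As a background, the same letters were searched in 51 and 50 bp lying 500 bp to the left and right of the same summits.

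AP-1 was the most frequent of the 17 motifs at the sites. It was found at 298 of the 1317 (22.6%, 20.4 to 25) and in 1.21% of their own flanks, a difference of 21.4 points (19.1 to 23.8). Of all annotated starts 1.43% held it, and of CpG-poor starts 1.91%. The nearest match lay a median of 21 bp from the summit (quartiles 10 and 34). Only matches within 50 bp were counted, so the search window bounds this distance, which is no measure of centring on the summit. Peaks of DPF3a alone outside promoters held it in 24.2%, and the difference from the promoter sites, -1.60 points, had an interval of -3.88 to 0.838. Promoters with SMAD4 held it in 14.6%, 8.07 points less than the sites (5.65 to 10.6), and promoters with all 3 factors in 4.72%, 17.9 points less (15.7 to 20.3).

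RUNX and TEAD, motifs of other enhancer-binding factors, also exceeded their own flanks. RUNX was found at 6.23% of the sites (5.04 to 7.66) and in 1.90% of their flanks, and TEAD at 5.47% (4.36 to 6.83) and in 1.59%. Peaks of DPF3a alone outside promoters held RUNX in 7.24% and TEAD in 5.49%. The promoter sites differed from them by -1.01 points (-2.27 to 0.482) and -0.0192 points (-1.18 to 1.39), with intervals that include 0. Promoters with SMAD4 held RUNX in 4.61% and TEAD in 2.85%, differences of 1.61 points (0.261 to 3.16) and 2.61 points (1.39 to 4.05). For both motifs, the share at promoters with all 3 factors was lower, 1.39% and 1.24%, with differences of 4.84 points (3.62 to 6.30) and 4.23 points (3.08 to 5.61). Among all starts, RUNX was found at 1.43% and TEAD at 1.09%. CEBP reached 5.54% at the summits and 4.71% in the flanks, a difference of 0.835 points whose interval, -0.861 to 2.54, includes 0.

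Motifs of CpG-rich promoters were rare at the sites and about as rare in their flanks. The GC box was found at 1.14% of the sites and in 1.06% of their flanks (difference 0.0759 points, -0.766 to 0.924), against 11.4% with SMAD4, 16% with all 3 factors and 9.72% of all starts. The SMAD element GGCGCC was also found at 1.14% and in 0.987% of the flanks (difference 0.152 points, -0.674 to 0.99), against 8.83% with SMAD4, 14.1% with all 3 factors and 6.69% of all starts, while the palindrome GTCTAGAC was found at 0 of the 1317 sites, which allows a share of up to 0.228%, and at 0.0379% of all starts. The ETS consensus was likewise at 0 of the 1317, against 1.48% with all 3 factors and 1.83% of all starts. The TATA box was found at 5.54% of the summits, less than in their flanks at 8.73%, a difference of -3.19 points (-5.18 to -1.23), and at 4.27% of all starts. The other classes also had lower TATA box shares at summits than in flanks. These were 6.37% and 10.9% for DPF3a alone outside promoters, 2.18% and 4.84% with SMAD4, and 0.891% and 3.86% with all 3 factors.

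**Figure D2:**
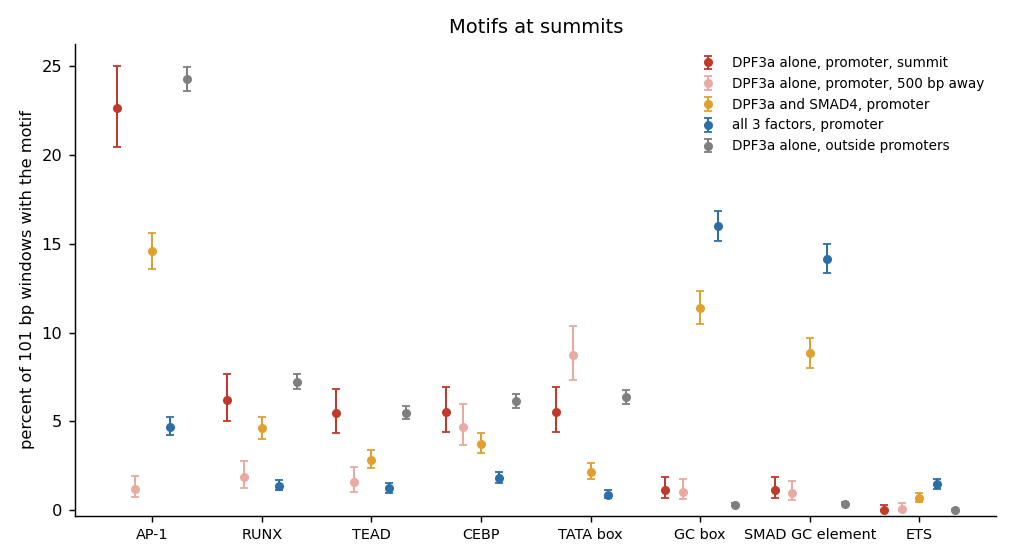
Percent of windows of 50 bp on either side of the summit that hold each motif (y axis), for 8 motifs (x axis) and 5 sets of windows, with 95% Wilson intervals. AP-1 stands at 22.6% at promoter sites of DPF3a alone (red) and 1.21% 500 bp away (pale red), and the GC box stands at 1.14% at those sites and 16% where all 3 factors were mapped (blue).

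The AP-1 share was then compared within sequence of the same kind. Among CpG-poor sites, 22.8% of the 1285 promoter sites of DPF3a alone held the consensus, 23.2% of those with SMAD4 and 20.2% of those with all 3 factors. The differences were -0.415 points (-3.19 to 2.44) and 2.63 points (-0.643 to 5.87), both with intervals that include 0. Among the CpG-rich sites, 5 of 32 held it (15.6%, 6.86 to 31.8), against 2.83% with SMAD4 and 1.58% with all 3 factors, differences of 12.8 points (3.99 to 28.9) and 14 points (5.28 to 30.2) that rest on those 5 sites. RUNX and TEAD shares among CpG-poor sites were 6.38% and 5.53%, and their differences from both kinds of shared promoter had intervals that include 0.

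The height of the peak, in reads at the summit, moved with the AP-1 share in the shared promoters but little in the sites of DPF3a alone. In these sites the share was 21.0% with 14 or fewer reads, 23% with 15 to 19, 24.0% with 20 to 29 and 22.6% with 30 or more. With SMAD4 it was 5.42%, 5.82%, 12.2% and 25.4% over the same bands, and with all 3 factors 0.739%, 0.390%, 2.18% and 14.7%. In the highest band the difference between the sites and promoters with SMAD4 was -2.74 points (-8.45 to 3.90). The CpG-rich share also changed over these bands. It was 61.9%, 64.7%, 49.6% and 15.4% with SMAD4, and 90.4%, 92.5%, 91.0% and 58.1% with all 3 factors. At the sites it was 2.72%, 3.24%, 2.40% and 0.503%. The AP-1 share by height was not taken within sequence of the same kind.

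**Figure D3:**
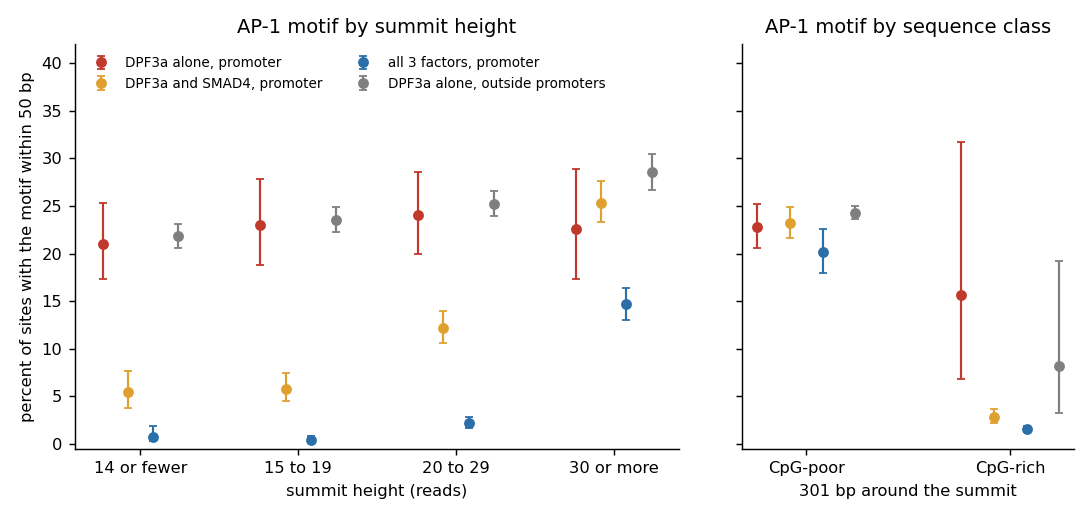
Percent of sites with an AP-1 consensus within 50 bp of the summit (y axis), by summit height in reads (left) and by sequence class (right), for 4 classes of DPF3a peak with 95% Wilson intervals. Promoter sites of DPF3a alone (red) stay between 21.0 and 24.0% over the height bands, and the CpG-poor sites of all 4 classes lie between 20.2 and 24.3%.

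AP-1 was present at every type and position of start. It was found at 21.0% of the sites nearest a protein-coding gene's start, 22.6% of those nearest a long non-coding RNA (lncRNA) start and 28.5% of those nearest another kind (22.8 to 35.0). Within 50 bp of a start it was found at 18.2% (12.5 to 25.6), and over 500 bp away at 23.3% (19.9 to 27.0). Sites with and without AP-1 had median fold enrichments of 5.79 and 5.75 and a median height of 18 reads each.

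The sites sat farther from the start than shared promoter peaks. The median distance from summit to nearest start was 384 bp (quartiles 133 and 708), against 163 bp with SMAD4 and 97 bp with all 3 factors. Under the overlap rule of the study, 0.5 of both peaks, the median of the sites standing alone was 199 bp. Within 100 bp of a start lay 19.7% of the sites (17.6 to 21.9), 16.8 points less than with SMAD4 (14.1 to 19.3) and 31.5 points less than with all 3 factors (29 to 33.9). Of all bases within 1000 bp of a start, 13.7% lie that near. Over 500 bp from a start lay 40.8% of the sites, 20.7% of the peaks with SMAD4, 5.93% of those with all 3 factors and 44.7% of the bases. Upstream of the start lay 52.9% of the sites (50.2 to 55.6).

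**Figure D4:**
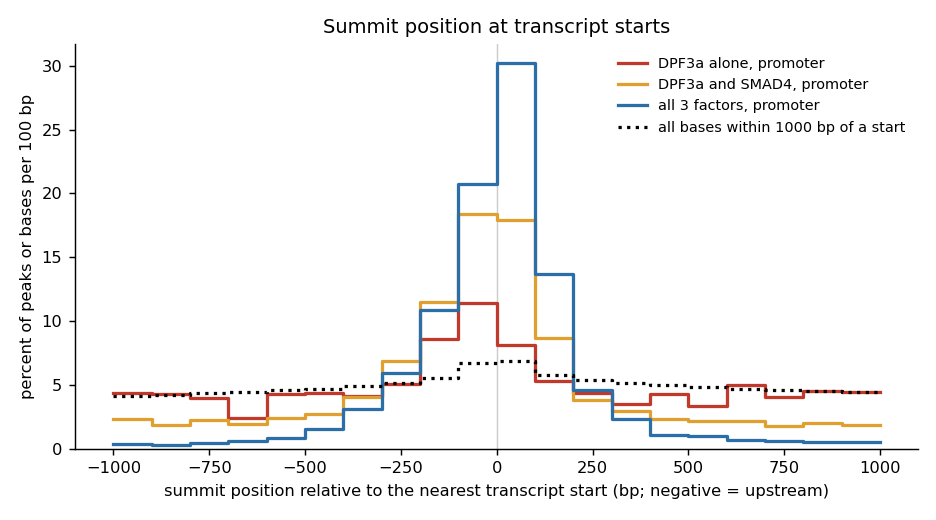
Percent of peaks or bases per 100 bp (y axis) by summit position relative to the nearest transcript start (x axis, bp, negative is upstream). Promoter sites of DPF3a alone (red) lie above the dotted line of all promoter bases from 200 bp upstream to 100 bp downstream of the start, with 11.4% in the last 100 bp upstream against 6.71% of the bases, while promoters with all 3 factors (blue) reach 30.2% in the first 100 bp downstream.

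The number of sites can be set beside the length of sequence searched. Windows of 1000 bp around starts covered 211 Mb, 7.19% of the sequenced genome, and held 8.09% of the DPF3a peaks that touched no other list. These values use the 1000 bp limit that chose the sites and are a description. That is 6.24 sites per Mb in promoter windows and 5.49 per Mb outside, a ratio of 1.14. The ratio was 3.05 for DPF3a peaks with SMAD4 without p300 and 19.3 for peaks of all 3 factors. Seen from the other side, 10.4% of promoter DPF3a peaks touched no other list, against 38.6% of DPF3a peaks outside promoters.

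Fewer of the sites lay at protein-coding starts than in the shared promoters. The nearest start belonged to a protein-coding gene at 756 sites (57.4%, 54.7 to 60.0), to an lncRNA at 354 (26.9%, 24.6 to 29.3), to a pseudogene at 108 (8.20%) and to another type at 99 (7.52%). Among the bases of promoter windows these shares were 57.6%, 21.5%, 13.9% and 6.98%. Protein-coding starts made up 72.7% with SMAD4 and 82.8% with all 3 factors, so the sites differed by -15.3 points (-18.3 to -12.4) and -25.4 points (-28.2 to -22.6). Of the 756 protein-coding cases only 65 were at the canonical start (4.94% of all the sites, 3.89 to 6.24), against 16.5% with SMAD4, 24.0% with all 3 factors and 7.28% of promoter bases. Over all gene types the nearest start was canonical at 488 sites (37.1%), against 34.9% with SMAD4, 34.7% with all 3 factors and 40.4% of the bases, and the differences of 2.12 points (-0.805 to 5.1) and 2.39 points (-0.416 to 5.26) had intervals that include 0. The other 691 protein-coding cases were at alternative starts, which lay a median of 21585 bp from the canonical start of the gene. The summit itself was inside a protein-coding gene at 887 sites (67.4%), and in a canonical coding exon at 49 (3.72%, 2.83 to 4.88).

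The DPF3a signal at the sites, given as a description, was weak and narrow beside the whole DPF3a list. The fold enrichment, the pileup at the summit over the local background with 1 added to each, had a median of 5.76 (quartiles 4.96 and 6.92, lowest 2.75, highest 17.4), against 6.70 in the whole DPF3a list. The median height was 18 reads over a background of 2.02, the median width 393 bp and the median −log10 q 8.26, against 25 reads, 2.82, 533 bp and 12.8 in the whole list. The whole list's lower quartiles for height and −log10 q were 17 reads and 7.97, and 395 of the 1317 sites exceeded its median fold enrichment. Promoters with SMAD4 had a median fold enrichment of 5.86, a height of 24 reads and a width of 565 bp, and promoters with all 3 factors 5.77, 22 reads and 721 bp. DPF3a peaks alone outside promoters had 6.06, 18 reads and 404 bp. Scores, 10 times the −log10 q, ran from 51 to 679 at the sites, and exceeded 100 at 480 of them and 200 at 105. The deposited values imply 15.8 M reads behind the DPF3a list, 30.4 M behind SMAD4 and 27.6 M behind p300. The lists hold only scores over 50, so a weaker SMAD4 or p300 signal at these sites was not detectable here.

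The strongest site lay in VCP, the AAA ATPase that extracts ubiquitinated proteins from complexes and membranes. Its fold enrichment was 17.4, with 68 reads at the summit over a background of 2.96, at chr9:35059478-35059804. The peak covers a coding exon of the canonical transcript at chr9:35059493-35059801, and its edges were 15 and 3 bp from the borders of that exon. VCP had another site, at chr9:35060320-35060530 with a fold enrichment of 6.99 and 26 reads, whose edges were 7 and 5 bp from those of the neighbouring exon at chr9:35060313-35060525. These were the only 2 of the 1317 sites with both edges within 20 bp of the borders of a canonical exon, against 14 of the other 50213 DPF3a peaks. This comparison was chosen after the values were seen, and the nearest SMAD4 peak lay 11928 bp from the stronger site.

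Next in strength came mostly lncRNA starts. TTLL10-AS1, an antisense RNA of the tubulin-modifying enzyme gene TTLL10, had a fold enrichment of 15.7 and 66 reads, 55 bp inside its canonical start. ENSG00000276997 and ENSG00000258773, both lncRNAs, had 14.7 and 14.5, with 31 and 84 reads. ENSG00000250501 and ENSG00000286062, also lncRNAs, had 13.0 and 12.9, and the pseudogene NDUFS5P3 had 12.7. Protein-coding genes completed the first 10. ZNF26, a zinc finger gene, had 13.4, ENSG00000269693 had 13.2, and DOCK10, a guanine nucleotide exchange factor, had 13.1 with 65 reads. Of these 10 sites DOCK10, ENSG00000269693, ENSG00000250501 and ENSG00000286062 held the AP-1 consensus.

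At canonical protein-coding starts the strongest site was that of ENSG00000269693. After ENSG00000269693 came S100A12, a calcium-binding protein of neutrophils, with a fold enrichment of 11.1 and 30 reads at 55 bp upstream. TPRX2, a homeobox gene, had 11.1 at 860 bp upstream. HSD17B2, a steroid dehydrogenase, had 8.56, and ALOX5AP, needed for leukotriene synthesis, had 8.55. KRTAP21-3, a hair keratin-associated protein, had 8.20, and RGS5, a regulator of G protein signalling in pericytes, also had 8.20. CIDEB, a lipid droplet protein of hepatocytes, had 8.19 with an AP-1 match 2 bp from the summit. MROH2B had 7.78. At the 65 canonical starts AP-1 was found in 12 (18.5%, 10.9 to 29.6), 12.4 points more than with SMAD4 (4.56 to 23.6) and 15.5 points more than with all 3 factors (7.91 to 26.7). These differences were not taken within sequence of the same kind. Of the sites at canonical starts 9.23% were CpG-rich, against 73.8% with SMAD4 and 91.4% with all 3 factors.

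The limits of the choice fell among peaks of like strength. The 5 sites nearest the distance limit lay 996 to 1000 bp from a start, with NBR1 and RASSF4 at 1000 bp, and had fold enrichments of 4.91 to 9.88. The 5 DPF3a peaks just beyond lay 1002 to 1007 bp away and had 5.53 to 9.28. The 5 sites nearest another list had a gap of 6 to 17 bp, led by RPSAP6, DIS3L and CD274, the ligand PD-L1, and fold enrichments of 4.33 to 6.14. The 5 promoter peaks left out by the smallest overlap touched another list by 3 to 11 bp and had 3.55 to 14.5, the highest being PURPL. The lowest scores, 51, were at RNASE7, BTN2A3P and ENSG00000230470, each with 12 reads and a fold enrichment of 4.78, at C12orf75-AS1 with 4.13 and at PYM1 with 4.61.

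Counted by gene, 759 of 20033 protein-coding genes, 3.79%, had a site of DPF3a alone within 1000 bp of any of their starts, and 1367 genes of any type did. The share rested on the settings, at 11.7% with the overlap rule of 0.5 of both peaks, 8.21% within 2500 bp and 1.63% with scores over 200. Genes with many starts offer more windows. The genes with a site had a median of 10 start positions and a length of 63531 bp, against 5 and 27471 bp for all protein-coding genes. Of the 759, 721 had 1 site, 37 had 2 and 1 had 3. The gene with 3 was AGXT2, a mitochondrial aminotransferase of kidney and liver, with fold enrichments of 6.64, 4.85 and 4.07 and no AP-1 match.

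Genes with a site of DPF3a alone often had another peak at a promoter, at the same start or at another. Another promoter DPF3a peak was present at 447 of the 759 (58.9%), against 47.2% of all protein-coding genes. A SMAD4 promoter peak was present at 576 (75.9%, against 62.6%) and a p300 promoter peak at 408 (53.8%, against 43.0%). The remaining 177 genes (23.3%) had no other peak of any list at a promoter. Genes with a site had a median of 10 start positions, against 5 for all protein-coding genes. The part of the number of starts in these shares was not tested. Between sites and peaks, the nearest SMAD4 peak lay a median of 10777 bp away and the nearest p300 peak 26195 bp away, against 17980 and 43851 bp for DPF3a peaks alone outside promoters. A peak of either lay within 1000 bp of 196 sites (14.9%). Those 196 had a median fold enrichment of 4.85, and 6.12% of them were CpG-rich, whereas the other 1121 had 5.93 and 1.78%.

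The TGF-β and BMP pathway, which signals through SMAD4, had a site at 4 of 54 genes, 7.41% against 3.79% of all protein-coding genes, with a median of 5 starts per gene. SMAD1, a receptor-regulated SMAD of BMP signalling, had a fold enrichment of 8.48 at an internal start, and its nearest SMAD4 peak lay 62866 bp away. ACVR1, a type I BMP receptor, had 5.98 with an AP-1 match. TGFB1, the ligand, had 4.02 in a coding exon, 465 bp from a SMAD4 peak and 644 bp from a p300 peak. TGIF1, a repressor of SMAD-driven transcription, had 3.73. All 4 were at starts other than the canonical one. A promoter DPF3a peak of some class was present at 39 of the 54 genes (72.2%), against 48.7% of all protein-coding genes.

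Among the SWI/SNF subunits, the complex that DPF3a belongs to, 2 of 28 genes had a site, 7.14% against 3.79% of all protein-coding genes, with a median of 13 starts per gene. SS18L1, a subunit of neuronal BAF, had a fold enrichment of 5.70, and ARID1A, the DNA-binding BAF subunit, had 5.65 in a coding exon, 449 bp from a SMAD4 peak and 236 bp from a p300 peak. Of the AP-1 subunit genes 0 of 17 had a site, a count too small to set apart from the 3.79% of all genes. A promoter DPF3a peak of another class was present at 12 of the 17 (70.6%). Of all protein-coding genes 48.7% had a promoter DPF3a peak of any class.

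Genes of adhesion, matrix and movement, the functions the study was about, were counted in 6 lists. The share of all protein-coding genes, 3.79%, is the background for each. Of 8 movement genes named by the study, 1 had a site (12.5%). It was MMP1, an interstitial collagenase, with a fold enrichment of 6.20. Its summit lay 976 bp downstream of a start, with an AP-1 match 31 bp from the summit. The study chose these 8 on its own cells, so the count is not independent. Of 55 matrix genes 7 had a site (12.7%). Among them were COL12A1 at 10.5 and COL11A1 at 9.03, fibril-associated and fibrillar collagens, and LAMA2, a laminin chain, at 6.45. Of 31 focal adhesion genes 5 had a site (16.1%). They were LPP at 5.03, LIMS1 at 4.98, TLN2 at 4.84, BCAR1 at 4.46 and SRC at 4.45.

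Of 45 integrins and cadherins 4 had a site (8.89%, against 3.79% of all protein-coding genes). Among them were CDH1, the epithelial cadherin, at 9.09 in a coding exon, ITGAE at 6.64 and CDH2, the neural cadherin, at 6.39. Of 51 metalloproteinases, inhibitors and plasminogen activators 4 had a site (7.84%). They were MMP1, ADAMTS6 at 5.79, MMP9 at 5.40 with an AP-1 match, and PLAT at 5.09. Of 17 transcription factors of the epithelial-mesenchymal transition 1 had a site (5.88%), TCF4 at 8.27. The median number of starts per gene was 10 in the matrix list and 15 in the focal adhesion list, above the 5 of all genes. The 759 genes with a site also had a median of 10 starts. Synapse and neuronal genes had a median of 10 starts and a share of 5.15%, and ribosomal proteins 8 starts and 1.16%. The part of the number of starts in these counts was not tested.

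For the kidney and its carcinoma, hypoxia targets had a site at 4 of 36 genes, 11.1% against 3.79% of all protein-coding genes, with a median of 9 starts per gene. PGK1, a glycolytic kinase, had a fold enrichment of 7.39, NDRG1, a stress-induced gene, 5.34 with 2 AP-1 matches, HK1, a hexokinase, 5.17 and CA12, a carbonic anhydrase, 5.15. Renal transcription factors had a site at 3 of 33 genes (9.09%), ESRRG at 5.86, EYA1 at 5.45 and PAX8, which marks the renal epithelial lineage, at 3.98. Tubule transporters had a site at 2 of 40, near the share of all genes at 5%, the phosphate transporters SLC17A1 at 5.77 and SLC17A3 at 4.3, both at canonical starts.

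Lists for other tissues and signals ran from 1.75% of WNT pathway genes to 11.6% of interferon-induced genes, against 3.79% of all protein-coding genes. Ion channels had a site at 9 of 170 (5.29%), with ANO3 at 11.7 and CACNA1E at 10.8. Synapse and neuronal genes had a site at 5 of 97 (5.15%), with TENM1 at 9.22 and TENM4 at 7.09. Sarcomere and muscle genes had a site at 5 of 72 (6.94%), with TTN at 8.72 and MYL4 at 6.06. Receptor tyrosine kinases had a site at 3 of 51 (5.88%), HOX genes at 2 of 39 (5.13%) and keratins at 2 of 55 (3.64%). Interferon-induced genes had a site at 5 of 43, GBP3 at 6.12, GBP2 at 5.40, IFI44L at 4.90, IFIT3 at 4.61 and IFIT2 at 4.48. Cytokines and chemokines had a site at 3 of 68 (4.41%), IL16 at 9.29, IL24 at 6.45 and CCL24 at 5.33. WNT pathway genes had a site at 1 of 57, TCF7 at 8.38.

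Beside AP-1 subunits, shares under 2% were found for oxidative phosphorylation, ribosomal protein, ZNF, histone, olfactory receptor and WNT genes. The share of all protein-coding genes was 3.79%, and 48.7% of them had a promoter DPF3a peak of any class. Oxidative phosphorylation genes had a site at 0 of 89, and 55 of the 89 (61.8%) had a promoter DPF3a peak of another class. Ribosomal proteins had a site at 1 of 86, RPLP0 at 4.0, with 41 of the 86 (47.7%) carrying some promoter DPF3a peak, near the share of all genes. ZNF zinc finger genes had a site at 8 of 508, with 278 of the 508 (54.7%) carrying some promoter DPF3a peak. Replication-dependent histones had a site at 1 of 70, H4C3 at 4.52, and olfactory receptors at 2 of 416, OR2S2 at 6.91 and OR14A2 at 4.61. The median number of starts per gene was 1 in the histone and olfactory receptor lists and 4 in the WNT and AP-1 subunit lists. It was 5 for ZNF genes, 6 for oxidative phosphorylation and 8 for ribosomal proteins, against 5 for all genes. The part of the number of starts in these low shares was not tested.

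**Figure D5:**
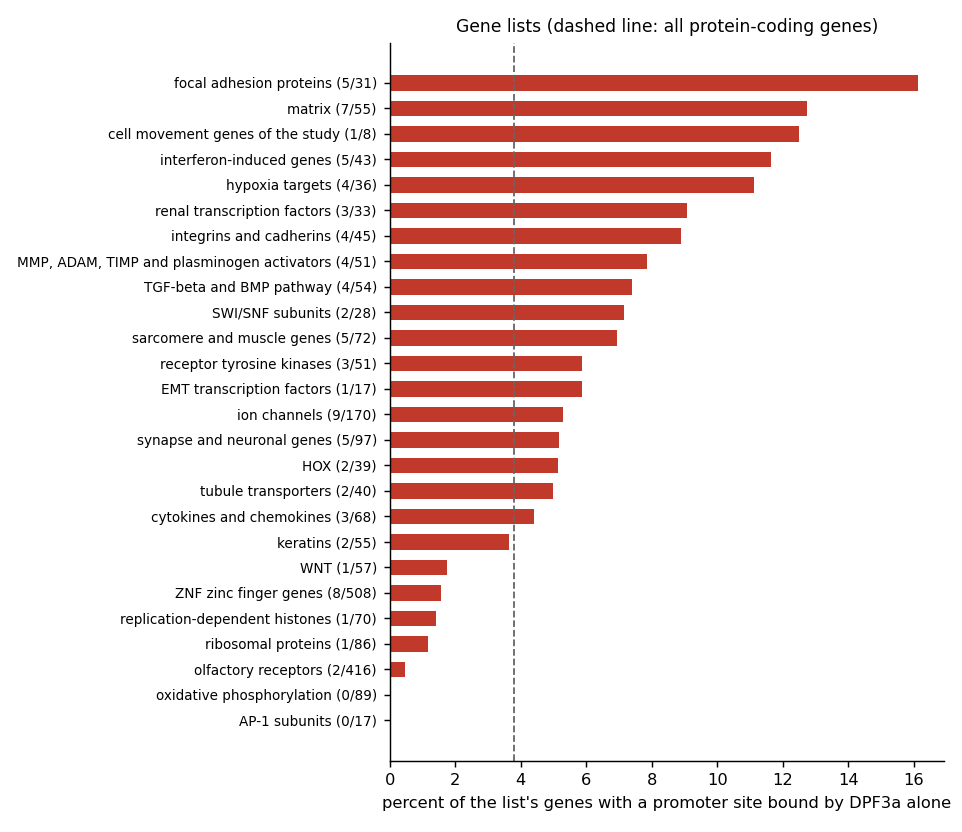
Percent of the genes of each list shown (y axis, with the count) that had a promoter site of DPF3a alone (x axis), as bars from 0. The dashed line marks all protein-coding genes at 3.79%, the focal adhesion list is at 16.1% and the oxidative phosphorylation and AP-1 subunit lists are at 0.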

How the data were processed

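ChIP-seq libraries of 786-O cells were grouped by the factor named in each title. According to the methods and the submitters' processing notes, the authors trimmed reads with cutadapt, mapped them to hg38 with Bowtie2 2.3.5.1, dropped poorly mapped and mitochondrial reads, removed duplicates with Picard, and called peaks with MACS2 2.2.5. In the deposited lists the score equals the −log10 q multiplied by 10, and only scores over 50 are present. They also give the fold enrichment, a ratio to local background computed by the authors, and the −log10 of p and q as deposited values. No control library is named. Per the series' design text each list comes from both libraries of a factor, in a way not given in the sources used here, so replicates could not be compared.

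Starts came from GENCODE 44 (219303 distinct start positions, counted by strand). The 219233 positions used for sequence ignore strand and lie on chromosomes 1 to 22, X and Y. Overlaps gave calls identical to bedtools 2.31.1 in 6 of 6 comparisons, and the motif search and the recovery of summit heights were tested on simulated data. Heights and depth were computed from fold enrichment and −log10 p. The lowest background was taken as the genome-wide level. Sequence was read 150 bp and motifs 50 bp on either side of summits, and these and Wilson and Newcombe intervals at 95% (scipy 1.17.1) were applied alike to all classes. The 19 DPF3a peaks off chromosomes 1 to 22, X and Y had no sequence values. Fixation, antibody, depth and possibly cells differ between lists and cannot be told apart from the factor.

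Genes were named by rule: the 10 sites of highest fold enrichment, the 10 at canonical protein-coding starts, the 3 strongest genes of each list, genes with at least 3 sites, and sites at the limits; any other was chosen after its values were seen. A site that this rule names and 1 gene list are not reported here. The sites and gene lists were chosen with earlier results of these data known. Alternatives were other score limits, promoter windows, start sets and overlap rules.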

Additional observations from a re-analysis of the deposited data

How the results depend on the processing

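No paired analysis was possible because a factor's 2 libraries share 1 list, which also means that no replicate could be left out. Of the recomputed values, 23 stayed within the counting interval of the reported one (for the number of sites, within 1.5 times) and 44 did not. With scores over 100 in every list, the share of promoter DPF3a peaks that touched no other list was 15.2%, the median fold enrichment 7.48, the AP-1 share 25.1% and the share of protein-coding genes with a site 2.71%. With scores over 200 there were 586 sites, 29% of promoter DPF3a peaks, with a fold enrichment of 9.80, AP-1 at 28.7%, CpG-rich sequence at 0.512%, a median distance of 295 bp, 54.6% at protein-coding starts and 1.63% of genes. Within 500 bp of a start there were 780 sites (7.21%), a distance of 160.5 bp and 2.23% of genes. Within 2500 bp there were 2849 sites (16.8%), 1.72% CpG-rich, a distance of 1109 bp and 8.21% of genes. From 1000 bp upstream to 100 bp downstream there were 846 sites (8.15%), a distance of 247.5 bp and 2.39% of genes. With protein-coding starts alone there were 781 sites (7.44%), a fold enrichment of 5.59, 3.46% CpG-rich and, by construction, 100% at protein-coding starts. With shared peaks defined by an overlap of 0.5 of both peaks there were 3114 sites (24.5%), a fold enrichment of 5.32, AP-1 at 12.6%, CpG-rich sequence at 42%, a distance of 199 bp, 70.6% at protein-coding starts and 11.7% of genes, since peaks that touch by less then count as alone. With no other peak within 1000 bp the share was 8.82%, the fold enrichment 5.93 and the genes 3.05%. The −log10 q, used in place of fold enrichment, had a median of 8.26, AP-1 within 100 bp of the summit was found at 35.8%, and a sequence window of 500 bp on either side gave 1.52% CpG-rich. The score limits were applied to all 3 lists, so a DPF3a peak that touched only weaker SMAD4 or p300 peaks then counted as alone. Of the 1317 sites 480 had scores over 100 and 105 over 200, whereas 938 and 586 sites were counted at those limits. Most of the 586 thus touched a SMAD4 or p300 peak in the full lists. Any other cause of the changes with score was not tested.

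No replicate error, input control or signal below the score limit was used here, and the lists differ in depth, antibody and fixation. Consensus letters miss degenerate motifs.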

Other observations

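The E-box CAGGTG, read by factors such as SNAI and ZEB, was found at 5.62% of the promoter sites of DPF3a alone and in 9.79% of their own flanks, a difference of -4.18 points (-6.23 to -2.15), and at 8.35% of all starts. The other classes also had lower CAGGTG shares at summits than in flanks. These were 5.91% and 7.56% for DPF3a alone outside promoters, 7.18% and 8.87% with SMAD4, and 7.60% and 8.87% with all 3 factors. The E-box CACGTG was found at 1.06% and in 0.228% of the flanks (difference 0.835, 0.221 to 1.56), and at 2.31% of all starts. The HIF element TACGTG, of the factors that VHL-deficient renal carcinoma cells stabilise, was found at 1.52% and in 1.14% of the flanks, and the difference of 0.38 points had an interval of -0.526 to 1.31.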
